A study of Phoxinus septimaniae with 18 samples.

Results

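Gill and liver transcriptomes of a hybrid minnow, Phoxinus septimaniae x P. dragarum, invasive in the river studied, were compared over both sampling stations, using every gill and every liver library, 12 of the 18 libraries in the series. Wild fish had been caught on the Llobregat River, either at a salt station close to a potash mine (18.1 ppt) or upstream at a reference station of lower salinity, and no treatment other than the place of capture is recorded. Each tissue gave 6 libraries, 3 per station, each described as a biological replicate. Gill reference 2 and 3 carry fish codes ending in A, while the other reference libraries carry codes ending in C; the labels do not say what the letters mean. The other 6 libraries are of brain and were not used here. The labels give neither age nor sex of the fish, and salinity cannot be told apart from other differences between the stations.

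Gills carry out gas exchange, ion and acid-base regulation and the excretion of ammonia across an epithelium that faces the water. Fish liver makes most plasma proteins, bile, and the yolk precursors of maturing females, and stores and converts nutrients; an organ of the first kind needs many membrane transporters, and an organ of the second kind exports much of what it makes. Both organs hold several cell types as well as blood. In such bulk samples fewer cells of a type and less RNA per cell cannot be told apart.

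The members were all assembled transcripts of the gill and liver tables, joined by identifier. The gill table listed 55872 transcripts and that of liver listed 31568, of which 25123 stood in both, 62317 in all. After 237 transcripts with first hits of 6 source codes were left out, counts were summed per assembled gene and first protein hit into 31821 features. A table lists a transcript only if it reached 1 CPM (counts relative to the total of the library) in at least 2 of the 6 libraries, so an absent transcript was under that level in at least 5 of 6 libraries and need not be silent. The hits are protein accessions, mostly zebrafish proteins of Ensembl (prefix ENSDARP), with a predicted number of transmembrane segments and a signal peptide tag. Transcripts of 1 feature can carry different numbers of segments, as in 1393 features, and the highest number is the one given. Among the named features this spread runs from 0 to the number given for ENSDARP00000058869, ENSDARP00000121883, ENSDARP00000067445, ENSDARP00000025026, ENSDARP00000118958, ENSDARP00000110421 and ENSDARP00000108129. They are paired with no gene name apart from mitochondrial entries, so features are named by accession, no role is given to any of them, and the tissue labels could not be checked against marker genes. The signal peptide tag stood on 87.3% of the gill transcripts with a hit and 90.03% of those in liver, so it cannot be read as secretion. Transcript lengths are not given either, and levels are therefore compared between tissues; a ranking by CPM, which also depends on length, served only to choose which features to describe.

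Gill libraries held 15200774 to 24222245 counts and liver libraries 22183499 to 39881549. Log2 CPM correlated at 0.511 to 0.6251 between a gill and a liver library, at 0.786 to 0.970 among gills and at 0.674 to 0.761 among livers, and the first principal component, 40.04% of the variance, separated the tissues. The highest gill value was that of reference 1 with the library labelled salt 3. The shares of transcripts within their gene correlated at 0.663 between these 2 libraries, against -0.424 to -0.0982 for the other 29 pairs within a tissue. The labels' codes of the 12 libraries stand for 9 fish, 3 of which (BC1C, BC4B and BC1B) gave both a gill and a liver library. For BC1C and BC4B the gill and liver shares correlated at 0.522 to 0.627, and for BC1B, the code of the gill library labelled salt 3, at -0.0760. That gill library correlated at 0.567 with the liver of BC1C, so its transcript shares go against its label. The 2 gill libraries still differed by more than sampling noise, with a median chi-square per feature of 1.885 against 0.455 from sampling alone. The other pairs of gill libraries had medians of 9.79 to 26.1, so these 2 were by far the closest pair. Counts without both are given with the results. The tissue comparison contrasts gill libraries with liver libraries, so a wrong station label in 1 gill library would leave its tissue as it is and alter the station term. Whether gill reference 1 and the library labelled salt 3 come from 1 fish was not tested. The tissue tests count them as independent, and 2 libraries of 1 fish could make the spread among gills too small.

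Of the 31821 features, 14700 (46.2%) were listed in both tables, 14462 (45.45%) in the gill table only and 2659 in the liver table only. The 2 tables were not cut at the same scaled level. Scaling factors of 1.84 to 2.05 in gills and 0.345 to 0.885 in liver put the cut of 1 CPM lower in gills. Gill-only features had a median level of 1.77 CPM of the total count, close to the cut. The uneven listing, here and by class, therefore cannot be read as a tissue difference. Of the 19113 features with a protein hit, 56.05% stood in both tables, 37.08% in the gill table only and 6.875% in the liver table only. The segment classes hold only features with a hit, and their listing varied around these shares. Among features with 8 to 11 predicted segments, a range that holds many carriers, 73.1% stood in both tables, and among those with 12 or more, the usual number for many transporters, 64.4%. Of the 211 features with 7 segments, the number typical of G protein-coupled receptors, 52.1% stood in both, 92 only in the gill table and 9 only in the liver table. Features without a protein hit were listed in both in 31.4% of cases.

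Counts were spread far more widely over features in gills than in liver. The 10 most counted features of a library took a lowest share of 6.17%, a median of 6.98% and a highest of 7.76% of all counts in gills (7.07 ± 0.608%, SD, n = 6). In liver the same share ran from 33.0% over a median of 51.5% to 65.3% (49.7 ± 13.7%, SD, n = 6). The ranges did not overlap, and the exact two-sided permutation test gave p = 0.002165, the smallest that 6 against 6 libraries allow. It took 657 to 858 features, with a median of 740.5, to reach 50% of the counts of a gill library, and 3 to 46, with a median of 9.5, in a liver library (exact permutation p = 0.002165). Within each station the ranges also lay apart, where 3 against 3 libraries cannot give a p under 0.1. Over transcripts listed in both tables the contrast was smaller, with 7.30% to 8.996% in gills and 13.8% to 20.9% in liver for the 10 most counted features, and 491 to 604 features against 144 to 233 for 50% of the counts.

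**Figure D1:**
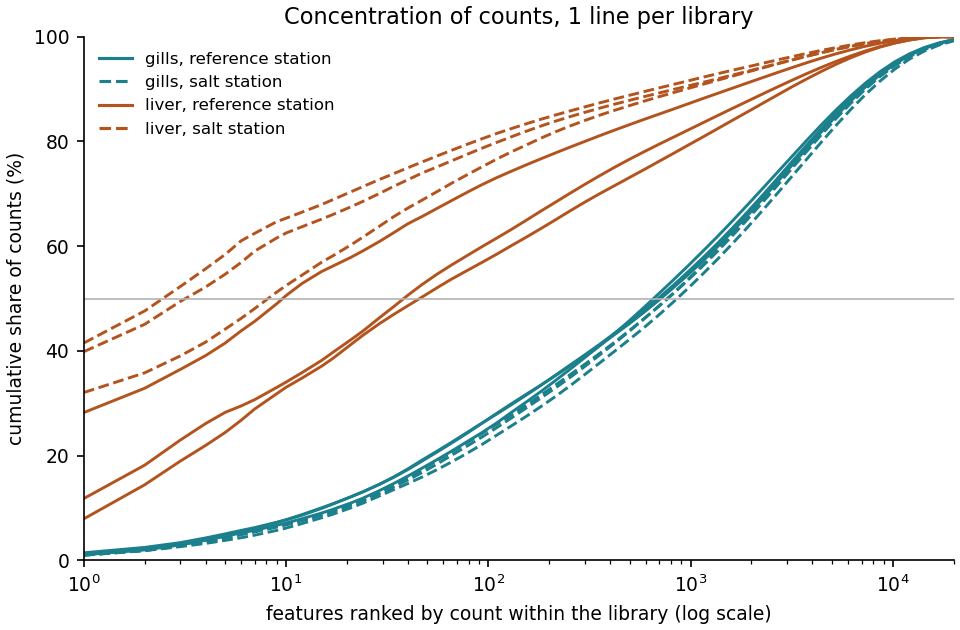
Cumulative share of counts (y axis, %) against the rank of features by count within a library (x axis, log scale), with 1 line per library, gills in blue-green and liver in brown, solid for the reference and dashed for the salt station. All 6 liver lines cross 50% within the first 46 features, and all 6 gill lines cross it between 657 and 858.

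A single feature took a large share of the counts in 4 of the 6 livers, and it differed among the fish as well as between the tissues. ENSDARP00000050237, from 6 transcripts of the assembled gene DN2838_c0_g1, took 28.2% of the counts of liver reference 1 and 39.9%, 41.5% and 32.0% of those of liver salt 1, 2 and 3. In liver reference 2 and 3 it was at 0.000139% and 0.000148%, and the gill table does not list it. So 4 livers had it as their most counted feature and 2 livers nearly lacked it. ENSDARP00000072693, also listed in liver only, split the same 6 livers in the same way, with 35890 CPM of the total count in liver reference 1, 52330, 61290 and 37590 CPM in liver salt 1 to 3, and 0.303 and 0.290 CPM in liver reference 2 and 3. Without the first of these features the 10 most counted features still took 31.6% to 41.8% of liver counts, and 22 to 46 features made up 50%.

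The other features listed in liver only with the highest means were present in all 6 livers. ENSDARP00000112199 had a lowest level of 3388, a median of 17440 and a highest of 118000 CPM of the total count, and was highest in liver reference 2 and 3. ENSDARP00000124424 ran from 4478 over 20100 to 79190 CPM. Together the features listed only in liver took 42.7% to 77.2% of the counts of a liver library, although they are 2659 in number. The 14462 features listed only in gills took 8.19% to 10.7% of gill counts.

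The 4 features with a hit that had the highest means among those listed in gills only had predicted membrane segments. They do not stand for the whole set. Of 7087 gill-only features with a hit 5950 had 0 segments, beside 8574 of 10712 in both tables. ENSDARP00000115804, with 1 segment, had a lowest level of 2214, a median of 2763 and a highest of 3256 CPM of the total count. ENSDARP00000060265, also with 1 segment, ran from 729 over 1408 to 1933 CPM. ENSDARP00000104912, again with 1 segment, stood between 1429 and 2073 CPM in 5 gill libraries and at 236 CPM in gill reference 3. That library was also the lowest for ENSDARP00000060265 and for ENSDARP00000053520, a 12-segment feature, which ran from 263.5 over 940 to 3043 CPM. No fold against liver is given for these 4, since the liver table does not list them. Of the gill-only features with a hit, 1449 (20.4%) had a hit that the liver table lists under another assembled gene, and of the liver-only ones 315 (24.0%), so part of the one-table listings concern the assembled gene rather than the protein hit. None of the 20 most counted liver-only features was of that kind (0 of 20).

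The 14700 features in both tables were tested in 1 edgeR quasi-likelihood fit with station as a covariate; called means a Benjamini-Hochberg adjusted p under 0.05. Of these features, 5733 (39.0%) were called, 2806 (19.1%) higher in gills and 2927 (19.9%) higher in liver. A difference of 4-fold or more was called for 2184 (14.9%), of which 926 (6.3%) were higher in gills and 1258 (8.56%) in liver. Among these features, which leave out those listed in 1 table only, large differences were more often toward liver. At 16-fold or more 142 were called in gills and 390 in liver, and at 64-fold or more 27 and 114. Over features of either table the 4-fold calls leaned toward gills, with 12081 against 3130 in liver when absent transcripts count 0. With 14462 features at 0 in every liver and 2659 at 0 in every gill, that lean is largely set by the listing and tests nothing. With absent transcripts at 1 CPM the calls were 2272 and 1632, in a fit whose scaling rests on more features. Neither pair of counts shows the direction of the tissue difference. The 6 gill and 6 liver libraries did not overlap for 3535 of the 14700 features (24.0%), 1868 higher in gills (12.7%) and 1667 higher in liver (11.3%). Without gill reference 1 and the library labelled salt 3, 4331 features were called and 2002 at 4-fold or more, and without gill reference 2 and 3, whose codes end in A, 4826 and 2045.

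The balance between the directions rested on the scaling. Factors of the trimmed mean of M values (TMM) ran from 1.84 to 2.05 for gills and from 0.345 to 0.885 for liver, and with total counts alone the median log2 difference of all tested features moved from 0.0029 to 1.93. On total counts 10240 features were higher in gills and 581 in liver. All 926 features called 4-fold higher in gills stayed called in that direction, as did 581 of the 1258 called 4-fold higher in liver, and none of the 1258 turned to a call in gills (0 of 1258). Of all 2927 features called higher in liver, 581 stayed called in that direction and 770 turned to a call in gills, while all 2806 called higher in gills stayed called. Leaving out the factors moves differences toward gills, so the gill calls that stayed are no test of those calls. Levels below are CPM on TMM-scaled library sizes, and log2 differences are gills minus liver.

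**Figure D2:**
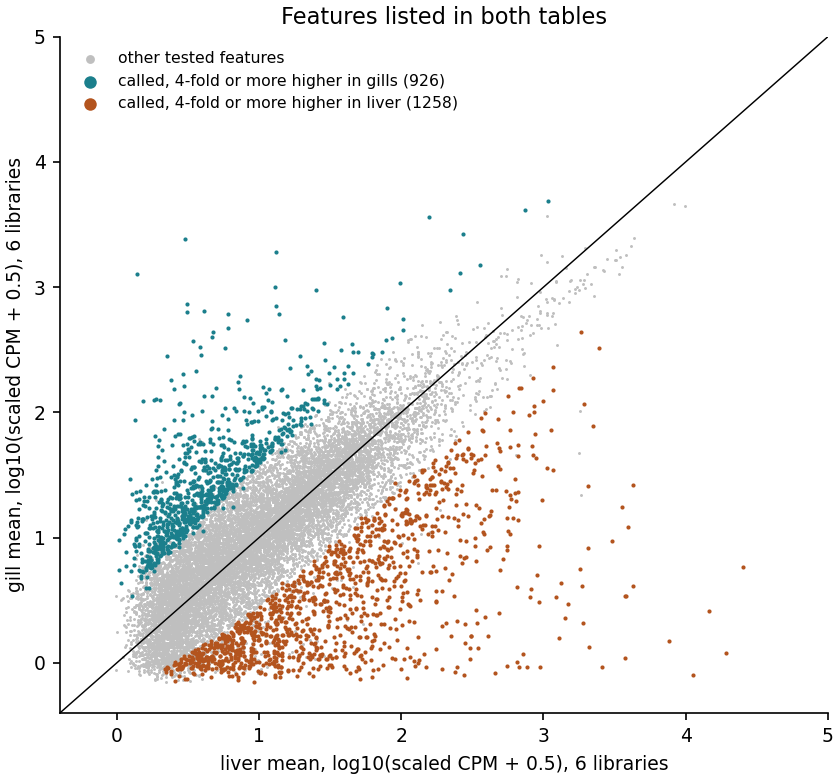
Mean level in 6 gill libraries (y axis) against that in 6 liver libraries (x axis), both as log10 of scaled CPM plus 0.5, for the 14700 features listed in both tables; the line marks equal levels. The 926 features called 4-fold or more higher in gills are blue-green, the 1258 higher in liver brown, and the brown points reach farther from the line.

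The 8 features described for a high CPM in gills were chosen among 4-fold calls whose gill and liver libraries do not overlap. That separation was thus a condition of the choice and not a result. Over all tested features 3535 (24.0%) do not overlap. The largest difference among the 8 was that of ENSDARP00000058869, a hit with 12 predicted segments on the assembled gene DN7662_c0_g1. Its level had a lowest value of 2076, a median of 2470 and a highest of 2620 CPM in gills, against 0.392, 1.207 and 6.23 CPM in liver. All gill libraries lay within a narrow band, and the 2 highest livers were reference 2 and 3, at 5.55 and 6.23 CPM. The log2 difference was 10.17 ± 0.77 (SE, adjusted p = 3.06e-06). Only 2 of its 5 transcripts are listed in liver, and with absent transcripts set to 1 CPM the difference was 8.98.

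ENSDARP00000075666, on DN498_c0_g1, had a lowest level of 1354, a median of 1966 and a highest of 2407 CPM in gills and of 7.42, 11.8 and 22.4 CPM in liver. The log2 difference was 7.24 ± 0.348 (SE, adjusted p = 2.76e-07). The same assembled gene also carries ENSDARP00000016453, which ran from 1355 over 1701 to 2481 CPM in gills and from 952 over 1198 to 2375 CPM in liver. That second feature overlapped between the tissues and was not called (log2 0.37 ± 0.266, SE, adjusted p = 0.297). So of 2 hits on 1 assembled gene, one differed 151-fold and the other did not pass the test in this fit. In the fit with absent transcripts at 1 CPM, ENSDARP00000016453 was called higher in gills (log2 1.32, adjusted p = 0.00188). Both of its transcripts are listed in both tables, so none was filled in, while the scaling of that fit rests on more features. On total counts it was called as well (log2 2.37, adjusted p = 1.83e-05), where the median of all tested features was 1.93. Over transcripts listed in both tables it was not called (log2 0.47, adjusted p = 0.197).

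ENSDARP00000018463, with 6 segments, showed the largest log2 difference toward gills among the named features that had at least 10 counts in all 12 libraries. Its lowest, median and highest levels were 430, 686.5 and 759 CPM in gills and 1.456, 3.33 and 6.17 CPM in liver. The difference was 7.49 ± 0.388 (log2, SE, adjusted p = 3.03e-07), and it was 7.58 at the reference and 7.45 at the salt station. ENSDARP00000034327 had 2134, 3661 and 5120 CPM in gills and 64.6, 138 and 285 CPM in liver, and a log2 difference of 4.59 ± 0.326 (SE, adjusted p = 2.02e-06).

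The remaining features chosen for their level in gills differed less, because liver also held them at 120 CPM or more. ENSDARP00000119141 ran from 4016 over 4849 to 5553 CPM, with 424 to 1850 CPM in liver (log2 2.23 ± 0.318, SE, adjusted p = 0.000229). ENSDARP00000120686 had 2365 to 2917 CPM in gills and 120 to 412 CPM in liver, a log2 difference of 3.31. ENSDARP00000092488, ENSDARP00000000221 and ENSDARP00000053204 differed by 2.51, 2.11 and 2.31 on the log2 scale. At the reference station alone ENSDARP00000092488 and ENSDARP00000000221 did not pass the test (adjusted p = 0.119 and 0.0734).

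Among features with at least 10 counts in every library, 2 more had large differences, and the first of them varied widely among gills. ENSDARP00000107798 stood at 569 to 654 CPM in gill reference 1, salt 2 and the library labelled salt 3, and at 88.1 to 131 CPM in the other 3 gills. Liver held 0.971 to 5.36 CPM, and the log2 difference was 6.997 ± 0.786 (SE, adjusted p = 4.16e-05). ENSDARP00000077786 ranged from 142 over 205 to 293.5 CPM in gills and from 0.971 over 1.516 to 9.999 CPM in liver (log2 6.23 ± 0.646, SE, adjusted p = 2.39e-05). ENSDARP00000059365, chosen among features with the signal peptide tag and no segment, had 391 to 1572 CPM in gills and 0.319 to 23.8 CPM in liver, where liver reference 1 and salt 1 were both under 0.5 CPM (log2 6.33 ± 1.04, SE, adjusted p = 0.000608). From the same class, the hit jgi_Takru4_292995_estExt_Genewise2.C_230122 (code FUGRU) had 481 to 1355 CPM in gills and 0.703 to 103 CPM in liver, a log2 difference of 5.44, and was not called at the reference station alone (adjusted p = 0.134).

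The features chosen for a high CPM in liver likewise came from 4-fold calls without overlap between the tissues. Their log2 differences ran from -7.28 to -15.17, and they varied several-fold among the livers. ENSDARP00000100241 ran from 8171 over 19200 to 65940 CPM, with liver reference 2 highest and reference 1 lowest. In gills it ran from 0.679 over 2.17 to 16.9 CPM. The log2 difference was -12.21 ± 1.23 (SE, adjusted p = 1.98e-05). ENSDARP00000040597 stood at 5940, 16320 and 33780 CPM in liver and at 0.391, 0.757 and 0.909 CPM in gills, for a difference of -14.66 ± 0.73 (log2, SE, adjusted p = 2.76e-07).

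ENSDARP00000099156 showed the largest difference of all named features, from its 1 transcript, which both tables list. Liver had a lowest level of 5570, a median of 10730 and a highest of 18770 CPM, and gills 0.0413, 0.198 and 0.651 CPM. The difference was -15.17 ± 0.819 (log2, SE, adjusted p = 3.31e-07). ENSDARP00000015328 followed the same pattern with 4129 to 29580 CPM in liver and 0.716 to 3.18 CPM in gills (log2 -12.65 ± 0.771, SE, adjusted p = 7.64e-07). Its livers were highest in reference 1 and 3, the libraries that were also highest for ENSDARP00000040597.

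ENSDARP00000069198 was unequal among the livers. It stood at 6363 CPM in liver reference 1, at 8224, 14820 and 16260 CPM in liver salt 1, 2 and 3, and at 7.13 and 73.1 CPM in liver reference 2 and 3. These are the same 2 livers in which ENSDARP00000050237 was nearly absent. Gills held 0 to 3.02 CPM, so no gill reached the lowest liver, and the log2 difference was -12.52 ± 1.963 (SE, adjusted p = 0.000432). At the reference station alone it did not pass the test (adjusted p = 0.063).

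Of the features with the signal peptide tag and no segment, ENSDARP00000037689 stood at 1271, 2945 and 9708 CPM in liver and 0.143, 0.575 and 10.27 CPM in gills (log2 -10.36 ± 1.45, SE, adjusted p = 0.000203). ENSDARP00000064203 had 1419 to 5731 CPM in liver and 0.0977 to 2.31 CPM in gills (log2 -12.76 ± 1.03, SE, adjusted p = 4.6e-06). Both were chosen among features without overlap between the tissues.

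Several of these features have transcripts that the gill table does not list, and setting absent transcripts to 1 CPM lowered their differences. ENSDARP00000064203, with 1 of 3 transcripts listed in gills, moved from -12.76 to -10.29 on the log2 scale. ENSDARP00000040597, with 1 of 2, moved from -14.66 to -12.98, and ENSDARP00000069198, also with 1 of 2, from -12.52 to -10.79. ENSDARP00000102718, with 2 of 7, moved from -10.81 to -8.68. In the same fit, where the scaling rests on more features, ENSDARP00000099156 moved from -15.17 to -14.25 although its transcript is listed in both tables. All 5 stayed past the threshold, with adjusted p of 0.000244 or less.

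The other 3 features chosen for their level in liver were ENSDARP00000040421, ENSDARP00000102718 and ENSDARP00000022396, the last with 3 predicted segments. Their log2 differences were -7.28, -10.81 and -8.12. ENSDARP00000022396 was also low in 2 reference livers, with 1094 and 643.5 CPM in reference 2 and 3 and 3423 to 7981 CPM in the other 4 livers. Across all features called 4-fold higher in liver the median coefficient of variation over livers was 54.3%, and across those called 4-fold higher in gills the median over gills was 32.4%. Over all tested features these medians were 42.3% in liver and 33.2% in gills.

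**Figure D3:**
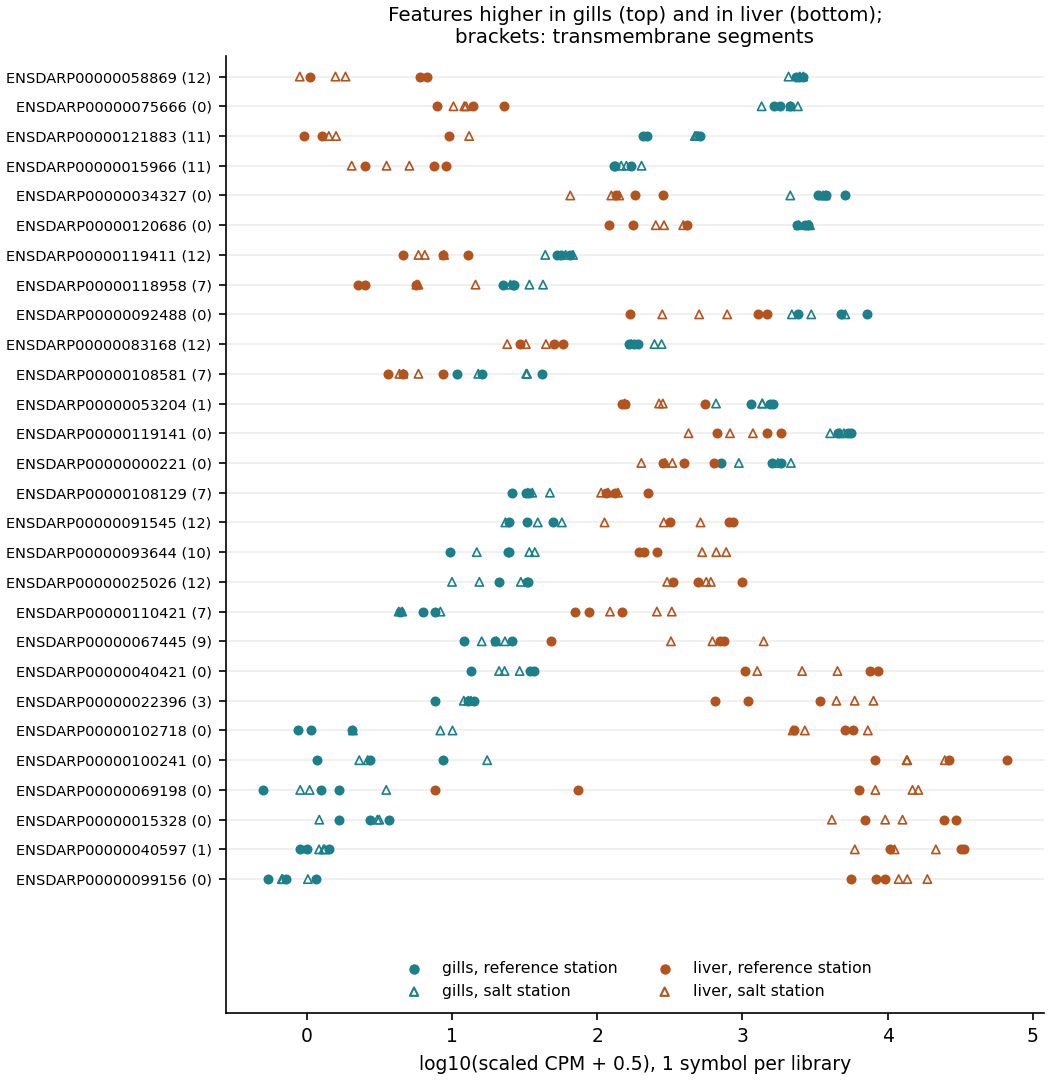
Level of named features in each library (x axis, log10 of scaled CPM plus 0.5), 1 row per feature ordered by log2 difference, with the predicted number of transmembrane segments in brackets; gills blue-green, liver brown, filled circles for the reference and open triangles for the salt station. The rows were chosen among features without overlap, so the 6 gill and 6 liver symbols of every row lie apart. The 2 reference livers of ENSDARP00000069198 lie at 7.13 and 73.1 CPM, far left of its other livers.

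Features with predicted segments had larger shares of 4-fold calls than all features tested. This held in both directions for every segment class except 7 segments, whose share toward liver was slightly lower. Of the 76 tested features with 12 or more segments, 10 were called 4-fold higher in gills and 13 in liver, 13.2% and 17.1%, beside 6.3% and 8.56% of all features tested. Of the 177 with 8 to 11 segments, 17 were called 4-fold higher in gills and 30 in liver, 9.61% and 16.9%. Their medians lay toward liver, at -0.17 and -0.12 on the log2 scale, beside 0.0029 over all features, and their quartiles ran from -1.31 to 0.89 and from -1.28 to 0.83. On total counts 51 features with 12 or more segments were called higher in gills and 9 in liver, so the direction of the classes also rests on the scaling.

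Predicted 7-segment proteins did not lean toward liver in these counts. Of the 110 tested, 11 were called 4-fold higher in gills and 9 in liver, 10% and 8.18%, with a median of 0.12. With any size of difference, 35 were called higher in gills and 23 in liver, 31.8% and 20.9% beside 19.1% and 19.9% overall. Features with 1 segment gave 108 and 104 calls at 4-fold of 1077 (10.03% and 9.66%). Those with 2 to 6 segments gave 64 and 83 of 698 (9.17% and 11.9%), so both classes also lay above the shares of all features. The 8574 features with a hit and no segment were close to the average, with 572 (6.67%) and 643 (7.5%).

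Among features without a protein hit, calls in liver outnumbered calls in gills. Of 3988 features without a protein hit, 144 (3.61%) were called 4-fold higher in gills and 376 (9.43%) in liver, with a median of -0.20. Of 917 with a hit but neither a signal peptide tag nor a segment, 32 (3.49%) were called in gills and 101 (11.01%) in liver. For the 7657 with the tag and no segment the counts were 540 (7.05%) and 542 (7.08%).

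**Figure D4:**
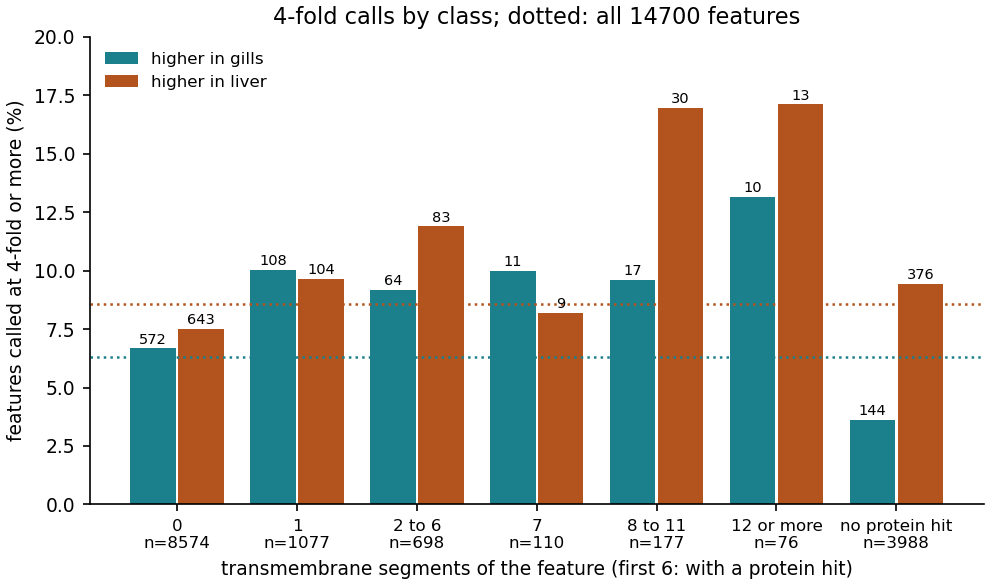
Share of tested features called at 4-fold or more (y axis, %) by predicted number of transmembrane segments and for features without a protein hit (x axis), with the number of calls on each bar, blue-green for higher in gills and brown for higher in liver. Dotted lines mark the shares over all 14700 features, 6.3% and 8.56%. The classes with 1, with 2 to 6, with 8 to 11 and with 12 or more segments lie above both lines.

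Some multi-segment features high in gills were at a few CPM in liver, and others were clearly present in both tissues. ENSDARP00000121883, with 11 segments, ran from 205.5 over 474.5 to 507.5 CPM in gills, where reference 2 and 3 were the low libraries. In liver it was at 0.459 to 1.086 CPM in 4 libraries and at 9.0 and 12.6 CPM in reference 3 and salt 3 (log2 6.56 ± 0.948, SE, adjusted p = 0.00025). ENSDARP00000015966, also with 11 segments, had 129, 152 and 201 CPM in gills and 1.533, 3.81 and 8.59 CPM in liver (log2 5.18 ± 0.442, SE, adjusted p = 6.38e-06). By contrast, the 12-segment features ENSDARP00000083168 and ENSDARP00000119411 differed by 2.40 and 2.96, with liver levels of 23.4 to 57.2 and 4.09 to 12.4 CPM.

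The multi-segment features named for a higher level in liver were listed in gills as well; another 20 with 8 to 11 segments and 13 with 12 or more were listed in the liver table only. ENSDARP00000025026, with 12 segments, stood at 302, 526 and 986.5 CPM in liver and 9.48, 24.9 and 32.6 CPM in gills, and differed by -4.59 ± 0.397 (log2, SE, adjusted p = 7.06e-06). ENSDARP00000091545, also with 12 segments, had 112 to 862 CPM in liver and 22.8 to 56.5 CPM in gills (log2 -3.60 ± 0.482, SE, adjusted p = 0.000151). ENSDARP00000093644, with 10 segments, was higher in the 3 salt livers, at 527 to 772 CPM, than in the 3 reference livers, at 193 to 257.5 CPM, and all lay above gills (log2 -4.03). ENSDARP00000067445, with 9 segments, was at 47.9 CPM in liver reference 1 and 321 to 1399 CPM in the other livers, against 11.7 to 25.4 CPM in gills (log2 -5.03 ± 0.65, SE, adjusted p = 0.000112).

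Predicted 7-segment features were named in both directions. ENSDARP00000118958 had 21.9 to 41.8 CPM in gills and 1.752 to 14.0 CPM in liver, and ENSDARP00000108581 had 10.23 to 40.9 and 3.10 to 8.18 CPM, with log2 differences of 2.53 and 2.34. Only 1 of the 6 transcripts of ENSDARP00000118958 is listed in liver. Its difference fell under 4-fold with absent transcripts at 1 CPM (log2 1.83) and over transcripts listed in both tables (1.86). Higher in liver was ENSDARP00000110421, with 69.3, 134 and 325 CPM against 3.79, 4.92 and 7.80 CPM in gills (log2 -4.83 ± 0.421, SE, adjusted p = 7.38e-06). ENSDARP00000108129 had 106 to 225 CPM in liver and 25.2 to 46.7 CPM in gills (log2 -2.03 ± 0.226, SE, adjusted p = 3.98e-05), but on total counts this difference was -0.05 (adjusted p = 0.884).

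The share of counts from features with at least 1 predicted segment was 15.6% to 17.7% in gills (16.9 ± 0.759%, SD, n = 6) and 4.56% to 14.0% in liver (8.73 ± 4.05%, SD, n = 6). These ranges did not overlap (exact permutation p = 0.002165), and the 3 salt livers were lowest, at 4.56% to 6.83%. Over transcripts listed in both tables only, the shares were 14.3% to 16.1% in gills and 14.2% to 17.9% in liver, and the difference was -0.0388 percentage points (exact permutation p = 0.95). The lower share in liver thus holds with the transcripts of a single table in the total, and over shared transcripts the ranges overlapped. Features with the signal peptide tag took 81.5% to 85.2% of gill counts and 88.1% to 93.7% of liver counts (exact permutation p = 0.002165). Over shared transcripts those shares were 84.0% to 87.1% and 86.3% to 89.9%, which overlap, and the difference fell from -8.38 to -2.26 percentage points (exact permutation p = 0.00649).

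A protein hit can be carried by several assembled genes, and these could differ in opposite directions. Of 578 hits with at least 2 tested features, 62 had 2 or more features called at 4-fold, all in 1 direction, and 4 had calls in both directions. ENSDARP00000011624 was the clearest. Its feature on DN893_c1_g1 had 93.2 to 137 CPM in gills and 17.5 to 40.2 CPM in liver (log2 2.17 ± 0.222, SE, adjusted p = 2.22e-05). Its feature on DN3858_c0_g1 had 10.21 to 17.1 CPM in gills and 90.7 to 143 CPM in liver (log2 -3.13 ± 0.183, SE, adjusted p = 5.62e-07). The tissues did not overlap for either. The other 3 were ENSDARP00000048827, ENSDARP00000125558 and ENSDARP00000116559; these 4 hits were chosen after their values were seen. Within 1271 assembled genes with at least 2 different hits, 7 held 4-fold calls in both directions. Copies that share sequence may exchange reads in counting, so the levels of single copies are uncertain.

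Some abundant features did not pass the test. Among these was EcC029155.20 (code EUCCA), at 470, 1770 and 4178 CPM in gills and 1053, 1282 and 4147 CPM in liver. Its difference was 0.07 (log2, 95% interval -1.17 to 1.32). That value averages opposite signs, 1.27 at the reference and -1.07 at the salt station alone (adjusted p = 0.078 and 0.247). The station test of EcC029155.20 gave adjusted p = 0.719 in edgeR and 0.143 in DESeq2. On total counts EcC029155.20 was called higher in gills (log2 1.98, adjusted p = 0.00182). ENSDARP00000011148 and ENSDARP00000120403 followed with -0.59 (-1.20 to 0.02, adjusted p = 0.104) and -0.70 (-1.41 to 0.01, adjusted p = 0.102), both higher in the 3 salt livers than in any gill. At the salt station alone both were called higher in liver (-1.17 and -1.335, adjusted p = 0.0108 and 0.0114). At the reference station neither was (0.04 and -0.01, adjusted p = 0.954 and 0.989). Their station test gave adjusted p = 0.719 for both in edgeR, and 0.0196 and 0.146 in DESeq2. Summed per protein hit, both passed the threshold of the tissue test (adjusted p = 0.0445 and 0.0483). On total counts these 2 turned to 1.36 and 1.28. The mitochondrial entry COX1, a subunit of cytochrome c oxidase, stood at 35.1 to 56.0 CPM in gills, at 53.8 to 147 CPM in 5 livers and at 10270 CPM in liver reference 2 (log2 -3.69 ± 1.52, SE, adjusted p = 0.0758). Without that library the difference of COX1_16714_3, as the file spells the entry, was -0.94 (adjusted p = 0.0124).

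The tissue difference was also set out by station. Of 14345 features tested at each station alone, 1972 were called at the reference and 4168 at the salt station, and 1601 at both, which is 81.2% of the reference calls and 38.4% of the salt calls. All 1601 had the same direction (0 opposite). The stations share no library, although gill reference 1 and the library labelled salt 3 resemble each other as described. More calls at 1 station do not show a larger difference there. The test of the difference between stations called 1 feature (0.0068%) in edgeR, with 845 at an unadjusted p under 0.05, and DESeq2 called 134.

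That feature, ENSDARP00000077859, was at 10.3 to 16.2 CPM in gills, at 1.664, 1.669 and 2.08 CPM in the 3 reference livers and at 0 in the 3 salt livers (interaction log2 8.84 ± 0.737, SE, adjusted p = 0.0186). The counts behind the reference livers were 24, 40 and 57. Only 1 of its 4 transcripts is listed in liver, and with absent transcripts at 1 CPM the interaction was 0.38 (adjusted p = 0.901). ENSDARP00000090139 and ENSDARP00000108373 likewise had 1 listed liver transcript with 0 counts in all salt livers (adjusted p = 0.0943 and 0.102). ENSDARP00000007836, with a single transcript in both tables, was at 0 in the 3 reference gills, at 0.569 to 1.046 CPM in the 3 salt gills and at 6.27 to 23.7 CPM in liver (adjusted p = 0.102). It met the filter of the gill table through salt gills only, so its zeros are tied to the filter as well. DESeq2, the fit with absent transcripts at 1 CPM and total counts called its interaction (adjusted p = 0.000121, 0.0492 and 0.0379). The replicate block did not. Over all tested features, 106 had 0 counts in all 3 salt livers, 14 in all 3 reference livers, 21 in all 3 reference gills and 4 in all 3 salt gills.

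**Figure D5:**
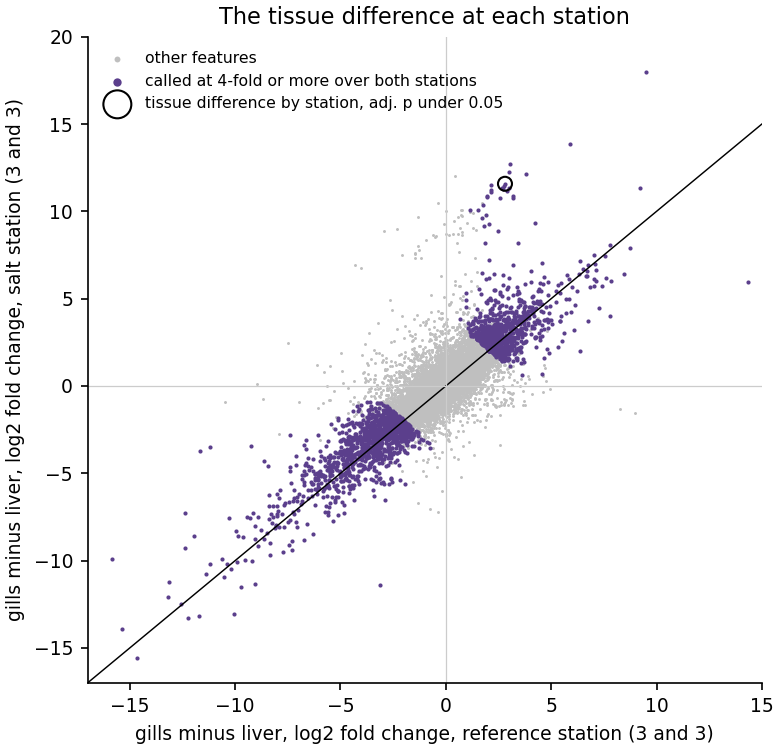
Log2 difference, gills minus liver, at the salt station (y axis) against that at the reference station (x axis), for 14345 features. Each difference is from 3 gill and 3 liver libraries. Purple marks features called at 4-fold or more over both stations, and the ring the 1 feature called in the station test. Most purple points lie near the line of equal differences, and a group at the top, the ringed feature among them, lies high above it; 106 tested features had 0 counts in all 3 salt livers.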

How the data were processed

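The deposited tables, 1 per tissue, give unnormalized counts of each assembled transcript; the authors assembled the transcripts de novo, per the series' design text, and identifiers follow the Trinity assembler. The submitters' processing notes list Trimmomatic and DESeq2; the aligner and the counting tool were not given in the sources used here. Columns were assigned by library code, groups by title. Counts were summed per assembled gene and first protein hit, leaving out hits coded TETTH, PARTE, HYPDU, DROME, CAEEL or CAPOW. Features in both tables were fitted with edgeR 4.0.16 (R 4.3.3; TMM, filterByExpr, which removed none, quasi-likelihood F test, two-sided) on tissue and station, an absent transcript counting 0; p-values were adjusted over all 14700 features (Benjamini-Hochberg, 0.05). The standard error is the log2 fold change over the square root of F. The 2 tables were filtered separately, so levels are set across tables. Shares were tested by exact permutation over libraries, two-sided, with libraries of the same fish code taken as independent. Gill reference 1 and the library labelled salt 3 were also taken as independent. Without the gill library labelled salt 3, the exact permutation test gave p = 0.00433 for each share tested over all features. The exact permutation test gave the same p for the number of features that make up 50% of counts. The 95% intervals of log2 differences use the t distribution with 9 residual degrees of freedom. DESeq2 1.42.0 and limma 3.58.1 served as alternatives.

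Features were named by level among non-overlapping 4-fold calls, by size of difference, by class, by lack of a call and by the station test. The members and lists were chosen with earlier results of these data known. Lists of gene symbols could not be used, since hits carry no symbols. Counts were simulated for 14700 features, of which 200 were changed. In these, edgeR recovered 47% of 100 features changed 4-fold and 5% of 100 changed 2-fold, with 3 false calls. DESeq2 recovered 75% and 22%, with 46. In the data 39.0% of features were called, a far larger share than was changed in the simulation. The adjusted threshold depends on that share, so these rates do not carry over to the tissue comparison. Replicates are biological per the titles, so the spread between libraries can hold differences between fish as well as counting error. Reads carry no molecular identifiers.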

Additional observations from a re-analysis of the deposited data

Results flagged for a closer look

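In 6 of 112 tissue groups of named features, 1 library lay farther from its nearest neighbour than Dixon's 95% critical value times the range, on log2 CPM; chance alone flags about 5 in 100 such groups. ENSDARP00000022396 was at 7.14 CPM in gill reference 2 and at 11.5 to 13.7 CPM in the other gills. ENSDARP00000090139 was low in the same library, at 6.14 CPM against 11.8 to 16.8 CPM. In gill reference 3, ENSDARP00000064203, a feature 4-fold or more higher in liver, reached 2.31 CPM against 0.0977 to 0.541 CPM in the other gills. ENSDARP00000104912 was at 236 CPM there and at 1430 to 2070 CPM elsewhere. ENSDARP00000108129 was at 225 CPM in liver reference 1 and at 106 to 138 CPM in the other livers. COX1 was at 10300 CPM in liver reference 2 and at 53.8 to 147 CPM in the other livers.

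ENSDARP00000077859, the 1 feature called in the station test, had an interaction of 8.844 on the log2 scale. Its 1 listed liver transcript passed the table filter through reference livers only and had 0 counts in all 3 salt livers. The size of this value therefore rests on zeros. With absent transcripts at 1 CPM the interaction was 0.38 (adjusted p = 0.901).

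Transcripts with first hits coded TETTH or PARTE, left out of all comparisons, reached 526.1 CPM of the total count in gill reference 1 and 450.1 CPM in the gill library labelled salt 3. They stood at 239, 0.0414, 96.0 and 5.70 CPM in gill reference 2, reference 3, salt 1 and salt 2, and at 0 to 25.2 CPM in livers.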

How the results depend on the processing

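Against 5733 features called and 2184 at 4-fold or more, total counts without scaling factors gave 10821 and 6895. Of these, 94.6% were higher in gills against 48.9% of all calls before. Removing the most abundant liver feature as well, an alternative chosen after seeing the data, gave 10133 and 4898. Removing it under TMM changed no count, which tests nothing, since the gill table does not list that feature and it was never among those tested. Features of either table gave 19291 and 15211 with absent transcripts at 0, and 11726 and 3904 with them at 1 CPM, of which 74.0% and 65.6% of all calls were higher in gills. The listing largely sets the first of these shares, and the second comes from a fit with other scaling. Of the 926 and 1258 features called 4-fold higher in gills and in liver, 894 and 1044 kept their call at 1 CPM. Of all 2806 gill and 2927 liver calls, 2724 and 1200 kept it, while 0 and 9 turned in direction. In 1191 of the 2184 4-fold calls, a transcript was absent from the lower tissue and counted as 0. Transcripts listed in both tables gave 4675 calls and 1676 at 4-fold, 659 higher in gills and 1017 in liver. Without scaling factors 770 of all 2927 liver calls turned to gills. Single transcripts gave 3220 calls and the reference station alone 1973. Leaving out 1 library at a time gave 4856 to 5538 calls and 2048 to 2278 at 4-fold. For the station difference, where 1 feature was called, DESeq2 gave 134, no scaling factors 5, absent at 1 CPM 5, leaving out gill reference 1 and the library labelled salt 3 0 (691 at an unadjusted p under 0.05), and leaving out 1 library 0 to 37. The count was 37 without liver reference 1, 14 without liver salt 2, 6 without liver salt 1, 2 without liver salt 3 and 0 without any of the other 8 libraries (605 to 1012 at an unadjusted p under 0.05).

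Replicate numbers do not pair the samples, since the fish codes under 1 number differ between tissues except in reference 1, and deviations of same-numbered libraries correlated at -0.148 to 0.274; the replicate block gave 4565 calls, 2065 at 4-fold and 0 for the station difference (529 at an unadjusted p under 0.05). With limma, fish code as a block, where 3 of 9 codes cover both tissues, gave 6243 calls against 5651 without it.

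At the reference and the salt station alone, where the exact permutation p cannot be under 0.1, the differences in percentage points were -6.40 and -10.3 (signal peptide tag), 4.34 and 11.9 (segments) and -31.7 and -53.5 (10 most counted features), and 655 and 794 features fewer made up 50% in liver. The segment share turned to -0.0388 over transcripts of both tables. Of 1010 alternative values of named features 979 kept direction and call, 12 lost and 15 gained the call, and 4 reversed: ENSDARP00000011148 at 1.36 and 0.93 and ENSDARP00000120403 at 1.28 and 0.83, without scaling factors and with the top liver feature also removed. The causes were not tested.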
